A study of Drosophila melanogaster with 4 samples.

Results

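The 8 genes described here take part in building the Drosophila eggshell: psd, Vm26Aa, Vm26Ab, Vm34Ca, Vm26Ac, Vm32E, Cp7Fb and clos. They were measured in whole virgin females that lacked dSETD3 (CG32732), the fly counterpart of the methyltransferase SETD3, and in control females. The array files give probe names and transcript identifiers but no gene symbols for these probes. Members were therefore the probes that the supplementary tables of the study pair with 1 of the 8 symbols, together with every other probe of the same transcript. This gave 15 of the 32162 probes of the array, between 1 and 4 per gene. The symbols of psd, Vm26Ac, Vm32E and Cp7Fb came only from a list of probes that the study had already selected as changed in these samples. Their genotype differences are therefore given as a description and without a test for each gene. Counts over all members include them and are not evidence of a direction. The symbols of Vm26Aa, Vm26Ab, Vm34Ca and clos came from a table that names probes whatever their change.

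RNA came from female flies aged 5 days that had not mated, with 2 arrays of control flies and 2 of dSETD3 KO flies, labelled as biological replicates. Whether several flies were pooled for an array is not given in the sources used here. Control flies were the isogenic w[1118] strain. The dSETD3 KO flies carried CG32732-/- in the w[1118] background: the first exon had been replaced by a cassette with a dsRED marker using CRISPR, the line was backcrossed to w[1118], and 1 stock of it was used. The controls do not carry the cassette. The 2 probes for CG32732 checked the labels. A_09_P016351 had signals of 7810 and 7999 in controls against 9.87 and 4.99 in dSETD3 KO flies, which is not well above background. A_09_P201260 had 1090 and 1150 against 3.47 and 3.50. A signal is the spot intensity after background correction by the scanner software, and it is comparable between arrays only after scaling. Each array was scaled by subtracting its 75th percentile on the log2 scale, which stood at signals of 1630 and 1766 in controls and 1662 and 1179 in dSETD3 KO flies. On the slide, positions 1 and 2 held controls and positions 3 and 4 held dSETD3 KO flies, so genotype and slide position cannot be told apart.

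The eggshell is secreted around each oocyte by the follicle cells, the epithelium that covers it. These cells first lay down the vitelline membrane, whose proteins are crosslinked into a sheet, and later the chorion on top of it. Their genes switch on and off in a strict order as an egg chamber matures, and chorion genes are amplified in number before they are transcribed. Virgin females can hold back mature eggs. Because whole flies were measured, a different number of egg chambers of a stage and a different amount of RNA per follicle cell cannot be told apart. The members are ordered below from vitelline membrane genes through the chorion gene to clos.

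For 3 vitelline membrane probes, the supplementary tables give a sequence of 60 bases together with the symbol. The last 30 bases of each are shown 5′ to 3′, because they tell which piece of these short, related transcripts the signal came from. All 3 genes are on chromosome arm 2L. In the Vm34Ca probe, capitals mark an ATG, the letters of a start codon, followed by an open frame to the end of the probe. In the Vm26Ab probe they mark the polyadenylation motif AATAAA.
Vm34Ca (A_09_P010016): aatcaacATGaagtgcatcgccatcgtctc
Vm26Ab (A_09_P010011): atctgaacctaagAATAAAgtaatgctttc
Vm26Aa (A_09_P010006): atttgacaaaaaatatacccaaaaatatgt
The open frame at the end of the Vm34Ca probe covers 7 codons, counting ATG. No capitals are set in the Vm26Aa probe, which has no AATAAA in these bases. The Vm26Ab and Vm26Aa probes also hold an ATG close to their end. It was not marked, and hardly any whole codon follows it there. The longest run of bases that any of these whole probes shared with another of the 3 was 7, and a run of 12 was the longest shared with any of the 1991 other probes listed there. On the strand as printed, AATAAA was present in 12.7% of the 1992 probes of that table, and in the last 30 bases of 9.74%. A match is a description of the letters and not evidence of a site in use.

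All 15 member probes passed the filter on low signal, and 14 were well above background on every array. The exception was the Cp7Fb probe A_09_P047621, which was not well above background on control replicate 2. With limma and Benjamini-Hochberg adjustment over the 21082 probes tested, 11 of the 15 member probes were called higher in dSETD3 KO flies at an adjusted p under 0.05. Over all probes, 3.8% were called higher and 16.6% lower. None of the member probes was called lower, and none was lower at an unadjusted p under 0.05. Of the 11 calls, 5 fell on the 6 probes that owe their name to the list of changed probes. The count over all members is therefore not evidence of a direction. Of the 9 probes named whatever their change, 6 were called higher, beside 6.89% of the 1525 tested probes named in that way. Of these 9, all 5 probes of Vm26Aa, Vm26Ab and Vm34Ca were called higher and 1 of 4 clos probes was. From these same samples the study had reported a slight enrichment of vitelline membrane formation among its upregulated genes. The members were chosen with that known, so these counts are not independent evidence. The median log2 difference was 1.36 over the 9 probes and 2.16 over all 15, beside 0.02 over all probes tested. Both dSETD3 KO arrays lay above both control arrays at 14 of the 15, which held for 39.4% of all probes tested. The calls of the members rested on having both control arrays. They were also lost with no filter on dim probes, when 38 of all 32152 probes tested were called higher and 26 lower. The calls of the members were lost too with the methods' t-test and Benjamini-Hochberg adjustment, which was added here and is not named in the methods. With that test 0 of all 21082 probes were called higher and 2 lower. All 15 differences stayed positive under these settings. As the settings reuse the same arrays and 6 of the probes were named only by the list of changed probes, that is not evidence of a direction.

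**Figure D1:**
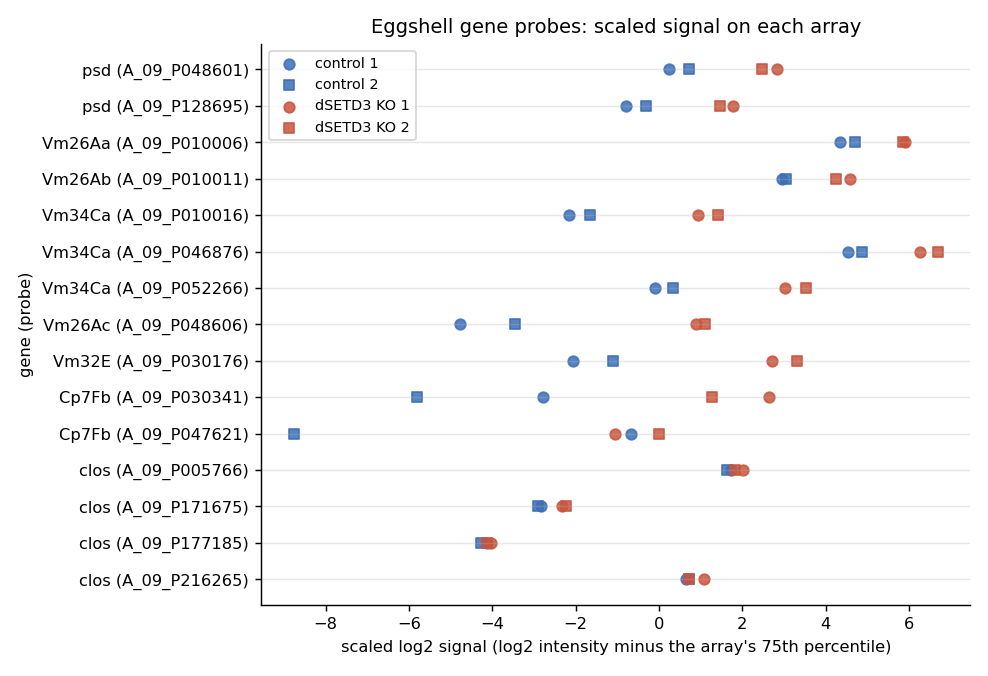
Scaled log2 signal (log2 intensity minus the 75th percentile of the array) of the 15 eggshell probes, with 1 point per array (blue, control; red, dSETD3 KO; circles, replicate 1; squares, replicate 2). Both dSETD3 KO arrays lie above both control arrays at 14 probes, and at the Cp7Fb probe A_09_P047621 control replicate 1 lies between the dSETD3 KO arrays.

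psd (palisade, transcript FBtr0079238) encodes a protein that is needed to form the vitelline membrane. Its probe A_09_P048601 had control signals of 1920 and 2933 against dSETD3 KO signals of 11773 and 6509. Its probe A_09_P128695 had 949 and 1431 against 5694 and 3254. At both probes the dSETD3 KO arrays were higher than both control arrays, control replicate 1 was the lowest array and dSETD3 KO replicate 1 the highest. The scaled log2 difference was 2.16 (SE 0.23) at the former probe and 2.16 (SE 0.21) at the latter, so the 2 probes of psd gave the same size.

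Vm26Aa (FBtr0079239) encodes a structural protein of the vitelline membrane that follicle cells make in the middle stages of oogenesis. Its probe A_09_P010006 had control signals of 33344 and 46205 against dSETD3 KO signals of 100246 and 68635. Both dSETD3 KO arrays were above both control arrays, and after scaling the dSETD3 KO arrays differed from each other by only −0.05 on the log2 scale. Vm26Aa rose by a log2 of 1.36 (SE 0.15, n = 2 arrays per genotype, limma adjusted p = 0.018), which is 2.56-fold.

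Vm26Ab (FBtr0079171) encodes another vitelline membrane protein of the same family. Its probe A_09_P010011 had control signals of 12700 and 14651 against dSETD3 KO signals of 40077.5 and 22401. The dSETD3 KO arrays stood apart from the control arrays, with replicate 1 the highest. After scaling, the lower dSETD3 KO array exceeded the higher control array by a log2 of 1.20. Vm26Ab rose by a log2 of 1.41 (SE 0.15, limma adjusted p = 0.018), or 2.66-fold.

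Vm34Ca (FBtr0080521), a further member of the vitelline membrane family, had 3 probes. The probe with the marked ATG, A_09_P010016, had control signals of 367 and 558 against dSETD3 KO signals of 3202 and 3170.2. A_09_P052266 had 1520 and 2239 against 13644.5 and 13698, and A_09_P046876 had 38000 and 52202 against 127274 and 123017. The genotypes did not overlap at any of the 3 probes. In the unscaled signals the dSETD3 KO arrays were nearly level with each other. After scaling, dSETD3 KO replicate 2 was above replicate 1 by a log2 of 0.48 at A_09_P010016, 0.50 at A_09_P052266 and 0.45 at A_09_P046876. Vm34Ca rose by a log2 of 3.09 (SE 0.25, limma adjusted p = 0.015) at A_09_P010016 and of 3.17 (SE 0.24, adjusted p = 0.015) at A_09_P052266. At A_09_P046876, the brightest probe of the gene, it rose by 1.77 (SE 0.21, adjusted p = 0.019). The probes therefore gave the same direction but not the same size, with 8.54-fold, 8.98-fold and 3.40-fold. No spot on any array was saturated, and 127274 was the largest signal of any member probe. Why the brightest probe gave the smallest difference was not tested.

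Vm26Ac (FBtr0079240) is named as a further vitelline membrane gene. Its probe A_09_P048606 had control signals of 59.1 and 161 against dSETD3 KO signals of 3076 and 2529. Both control arrays were far below the dSETD3 KO arrays, and they also differed from each other, with replicate 2 above replicate 1 by a log2 of 1.33 after scaling. The scaled difference between genotypes was 5.12 (SE 0.47), or 34.7-fold.

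Vm32E (FBtr0080216) encodes a vitelline membrane protein that follicle cells add to the layer. Its probe A_09_P030176 had control signals of 393 and 827 against dSETD3 KO signals of 10871 and 11689. The order of the arrays was that of Vm26Ac after scaling, with control replicate 1 the lowest and dSETD3 KO replicate 2 the highest. The scaled difference was 4.58 (SE 0.40), or 24.0-fold.

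Cp7Fb (FBtr0071201) belongs to the chorion gene cluster of the X chromosome, which follicle cells use late in egg formation, after the vitelline membrane genes. Its probe A_09_P030341 had control signals of 238 and 31.7 against dSETD3 KO signals of 10463 and 2854. Its probe A_09_P047621 had 1030 and 4.06 against 805 and 1188. At the former probe the genotypes did not overlap. At the latter they did, because control replicate 1 lay within the range of the dSETD3 KO arrays after scaling and control replicate 2 was alone at the bottom. The scaled log2 difference was 6.25 (SE 1.14) at A_09_P030341 and 4.20 (SE 2.81) at A_09_P047621. The control arrays differed by a log2 of −3.02 at the former and −8.10 at the latter (replicate 2 minus replicate 1). As control replicate 2 was not well above background at A_09_P047621, the sizes of −8.10 and of 4.20 rest on a signal that was not measured there. Without that array the difference between genotypes at A_09_P047621 was 0.145.

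clos (closca, FBtr0305178) encodes a protein needed for an intact vitelline membrane and for the terminal patterning signal stored in it. It is known to be made by the germline rather than by follicle cells, so the description of all 8 genes as genes of follicle cells does not hold for clos. Its probe A_09_P005766 had control signals of 5393 and 5518 against dSETD3 KO signals of 6694 and 4173, and A_09_P216265 had 2580 and 2894 against 3542 and 1943. A_09_P171675 had 229 and 237 against 329 and 250.1, and A_09_P177185 had 92.6 and 91.6 against 103 and 67.1. In these unscaled signals dSETD3 KO replicate 2 was the lowest array at 3 of the 4 probes, and it was also the array with the lowest 75th percentile. After scaling, both dSETD3 KO arrays were above both control arrays at all 4 probes, by a log2 of 0.0031 at the narrowest. Only A_09_P171675 rose past the threshold, by a log2 of 0.58 (SE 0.09, limma adjusted p = 0.027). The other probes of clos gave 0.23 (SE 0.11, adjusted p = 0.17), 0.22 (SE 0.15, adjusted p = 0.31) and 0.13 (SE 0.10, adjusted p = 0.36) for A_09_P005766, A_09_P216265 and A_09_P177185.

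**Figure D2:**
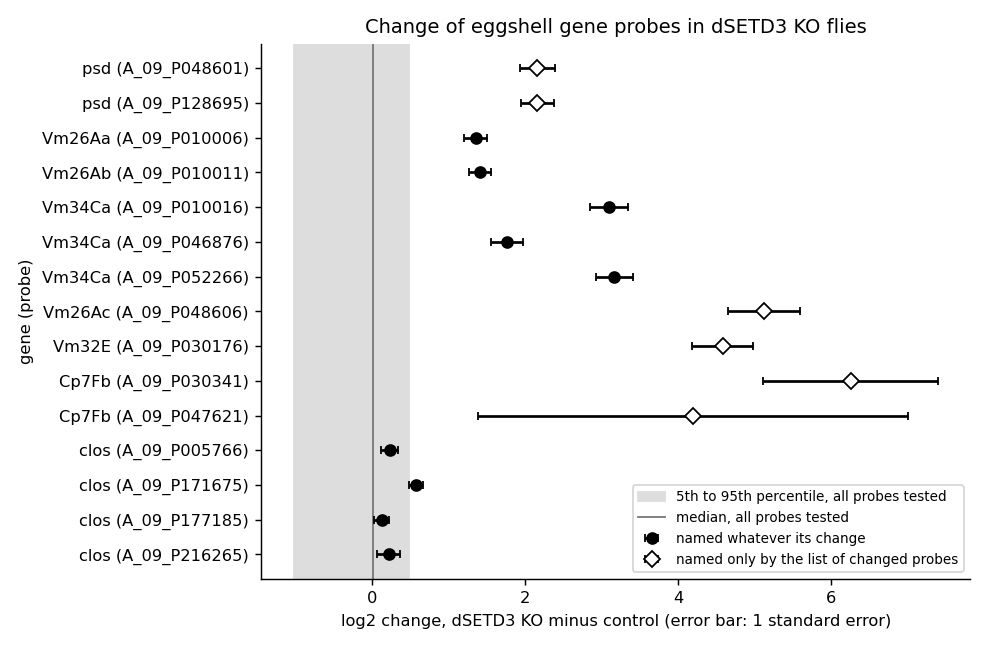
Log2 difference in scaled signal, dSETD3 KO minus control, for each eggshell probe (bars, 1 SE from limma; filled circles, named whatever their change; open diamonds, named only by the list of changed probes), over the 5th to 95th percentile of all probes tested (grey band, −1.02 to 0.48) and their median (line). The values run from 0.13 at a clos probe to 6.25 at a Cp7Fb probe, and the other Cp7Fb probe has the widest bar, with an SE of 2.81.

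Since the control arrays were not alike at these genes, the difference between arrays of 1 genotype was set beside the same difference over all probes tested. Over all probes, control replicate 2 minus replicate 1 ran from −0.26 at the 5th percentile to 0.45 at the 95th, with a median of −0.01. At the 9 probes of the 6 vitelline membrane genes, the members other than clos and Cp7Fb, control replicate 2 was above replicate 1 every time. These differences ran from 0.09 at Vm26Ab through 0.50 and 0.48 at psd to 0.96 at Vm32E and 1.33 at Vm26Ac. At both Cp7Fb probes control replicate 2 was below replicate 1, the opposite order to that at the vitelline membrane genes. The clos probes stayed between −0.13 and 0.05.

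The dSETD3 KO arrays also differed at these probes, but without 1 common order. Over all probes tested, dSETD3 KO replicate 2 minus replicate 1 ran from −0.42 at the 5th percentile to 0.56 at the 95th. psd was lower on replicate 2, by −0.36 and −0.31, and so was Vm26Ab, by −0.34. Vm34Ca was higher on replicate 2, by 0.48, 0.45 and 0.50, and Vm32E by 0.60. At all 9 vitelline membrane probes the lowest dSETD3 KO array exceeded the highest control array by more than either difference within a genotype. This gap was smallest at Vm26Aa, at 1.15. The probes of psd, Vm26Ac and Vm32E were named only by the list of changed probes, so their gaps are not evidence of a difference. How many of all probes tested had such a gap was not counted, so the count of 9 has no share to be set beside. The looser condition, both dSETD3 KO arrays above both control arrays, held for 39.4% of all probes tested.

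**Figure D3:**
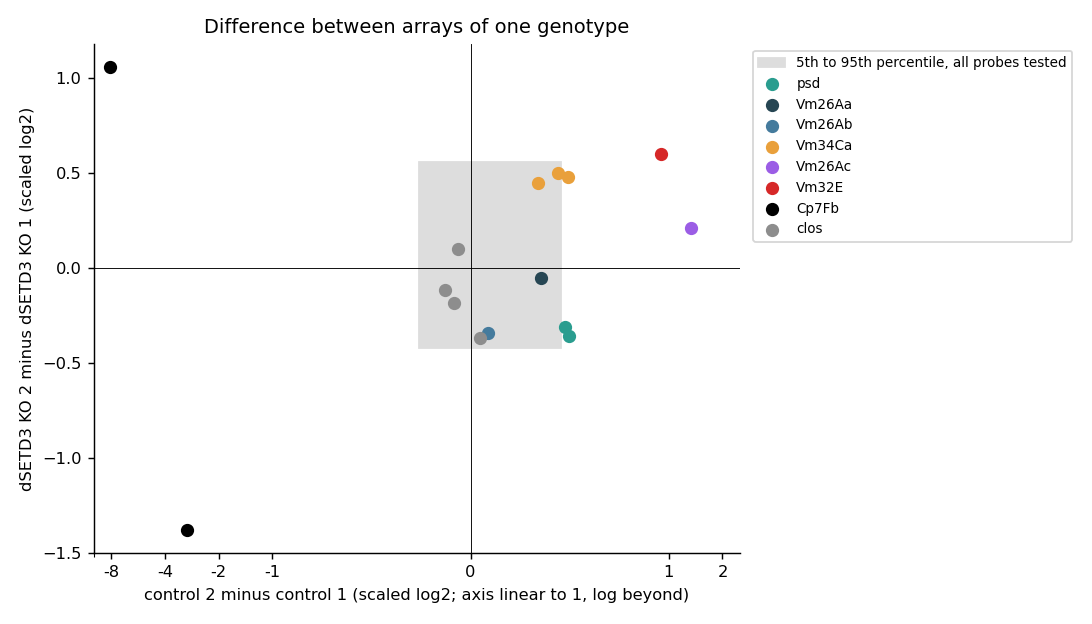
Difference between the arrays of 1 genotype at each eggshell probe on the scaled log2 scale, for controls (horizontal axis, linear to 1 and logarithmic beyond) and dSETD3 KO (vertical axis); the grey box spans the 5th to the 95th percentile over all probes tested. Cp7Fb lies far to the left at −3.02 and −8.10 (the latter with control replicate 2 not well above background), whereas Vm32E and Vm26Ac lie to the right at 0.96 and 1.33.

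Gene order from the RefSeq annotation (assembly GCF_000001215.4), used here for order only, puts 4 members side by side on chromosome arm 2L, in the order Vm26Ab, Vm26Ac, Vm26Aa and psd. These neighbours did not share 1 size of difference: 1.41, 5.12, 1.36 and 2.16 on the log2 scale. Vm26Ac, with the largest value of the 4, lies between the pair with the smallest values. Vm32E and Vm34Ca lie elsewhere on 2L, Cp7Fb lies on the X between Cp7Fa and Cp7Fc, and clos lies on 2R. Vm26Ab, Vm26Ac and Vm26Aa had 1 probe each, and Vm26Ac and psd were named only by the list of changed probes. Probes of 1 transcript can differ in size, as those of Vm34Ca did, so these sizes may not be comparable between genes. The difference between these neighbours was not tested.

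The named genes outside the members whose pattern over the 4 arrays was nearest to the mean of the member probes were CG13998, CG31759, CG4734, CG1951 and Rcd1. Likeness was the root mean square difference of log2 values centred on each probe's mean, which was 0.058 for CG13998, 0.135 for CG31759, 0.147 for CG4734, 0.171 for CG1951 and 0.174 for Rcd1. CG13998 lies next to Vm26Ab on 2L. Its probe had control signals of 46.6 and 34.2 against dSETD3 KO signals of 198 and 147, with no overlap, and a log2 difference of 2.37 (SE 0.21). The probe was picked for its likeness to the members, so the lack of overlap and the size follow from that choice. Unlike at the vitelline membrane genes, control replicate 2 was below replicate 1. Not every probe of these genes was alike: a further probe gave a log2 difference of 0.38 for CG31759 and 0.18 for Rcd1. The symbols of 3 of the 5 genes, CG13998, CG31759 and CG1951, came only from the list of changed probes. The mean profile was lower on control replicate 2 than on replicate 1, an order that 10 of the 15 member probes do not have. Over the 13 probes other than Cp7Fb the centred mean was −1.18 on control replicate 1 and −0.82 on replicate 2, and the 5 nearest genes were then CG8768, CG11395, CG42837, St4 and Cyp4e3, with 0 of 5 shared. The nearest genes thus depend on the 2 Cp7Fb probes.

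Of 20 other eggshell genes looked for, Vml and tsl had a named probe, and the other genes of that list were not analysed here. Vml, a vitelline membrane-like gene, had control signals of 2410 and 5517 against dSETD3 KO signals of 26994 and 14872. The genotypes did not overlap, and control replicate 1 was the lowest array, as at the vitelline membrane members. Vml rose by a log2 of 2.74 (SE 0.40, limma adjusted p = 0.024), or 6.66-fold. tsl (torso-like), which small groups of follicle cells make for terminal patterning, had 2434 and 2720 against 1920 and 1592. Its scaled log2 difference was −0.28 (SE 0.11, adjusted p = 0.13), which did not pass the threshold.

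The yolk protein genes, which are expressed in fat body and follicle cells, were set beside the eggshell genes. Yp1 had control signals of 46800 and 45322 against dSETD3 KO signals of 42484 and 35875. Yp3 had 96994 and 97246 against 116600 and 83020 on the same arrays. The scaled log2 difference was 0.04 (SE 0.13, limma adjusted p = 0.83) for Yp1 and 0.30 (SE 0.09, adjusted p = 0.083) for Yp3, so neither passed the threshold. The unadjusted limma p for Yp3 was 0.028. After scaling, both dSETD3 KO arrays lay above both control arrays at Yp3 but not at Yp1, beside 39.4% of all probes tested. Summed over both probes, the scaled signal was 80.7 to 88.2 times the 75th percentile on the control arrays and 95.7 to 101 times on the dSETD3 KO arrays.

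Markers of other tissues in a whole female were counted in the same way. Of 15 germline genes looked for, 12 had a named probe, and 1 of their 17 probes was called higher (krimp, log2 0.77) and none lower, with a median of 0.18 and values from −0.39 to 0.77. That is 5.88% called higher, near the 6.89% among probes named whatever their change. At an unadjusted p under 0.05, 4 of the 17 were higher and 1 was lower. The summed scaled signal of the germline probes was 38.1 to 41.1 times the 75th percentile in controls and 44.3 to 46.1 times in dSETD3 KO flies. For 15 muscle genes, 42 of 54 probes tested were called lower and none higher, with a median of −0.99. That is 77.8%, beside 16.6% of all probes tested. At an unadjusted p under 0.05, 2 were higher. Their summed signal was 384 to 398 times the 75th percentile in controls and 195 to 202 times in dSETD3 KO flies. Of these muscle probes, 26 were named whatever their change, and 16 of the 26 (61.5%) were called lower, with a median of −0.74. The other muscle probes were named only by the list of changed probes, so the count over all 54 is not evidence of a direction. The share called lower among all probes named whatever their change was not counted. The part of the lower muscle signal in the eggshell differences was not tested.

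**Figure D4:**
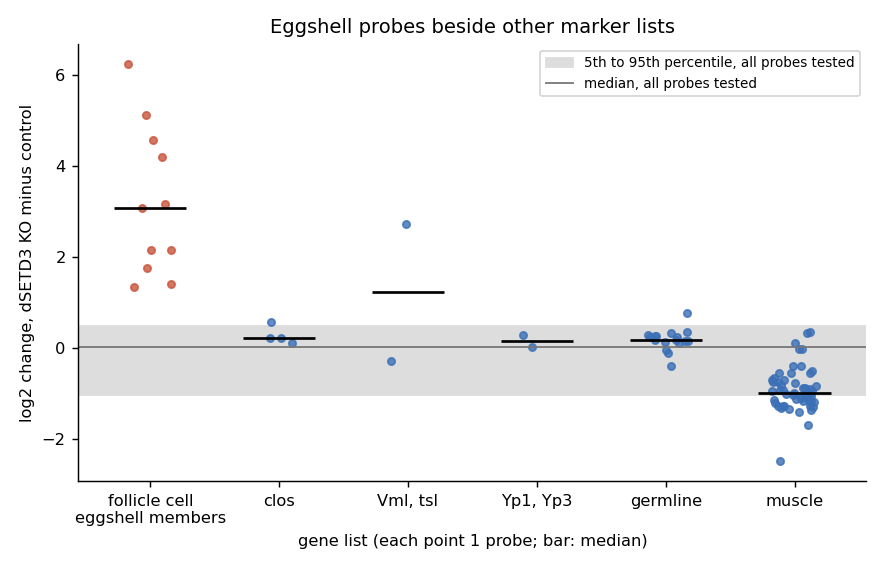
Log2 difference in scaled signal, dSETD3 KO minus control, for each tested probe of the eggshell members and of the other eggshell, yolk protein, germline and muscle lists, with clos apart (points, probes; black bars, medians; grey band, 5th to 95th percentile of all probes tested). The 11 member probes other than clos have a median of 3.09, or 1.77 over the 5 of them named whatever their change. The median is 0.18 for germline probes, all named in that way, and −0.99 for muscle probes, or −0.74 over those named in that way.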

How the data were processed

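The arrays were 1-colour Agilent arrays, 2 per genotype. The authors deposited scanner output (Agilent Feature Extraction 10.7, per the submitters' processing notes) holding spot intensities corrected for background and not normalized between arrays. The output of control replicate 1 gives them rounded to 3 significant digits. The authors also deposited 1 intensity per probe, which equalled the mean of spot medians within 0.01 for all 31962 probes with 1 or 2 spots and was not background-corrected. The fold changes and p-values of the supplementary tables were not used, only their names and sequences. The copy of the first of these tables used here has 1992 rows, so 2776 of 32162 probes have a name.

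Each array had 45019 spots. After removal of 1417 control spots and of 45 to 73 outlier spots per array, spots of the same probe were averaged as log2 intensities, and the array's 75th percentile was then subtracted. The share of probes well above background was 63.6% to 66.8% per array, and the number of arrays limits the precision. A probe was tested if it was well above background on both arrays of either genotype, which left 21082. The test was limma 3.58.1 (R 4.3.3) with a genotype term and Benjamini-Hochberg adjustment. Replicate arrays correlated at 0.991 (control) and 0.993 (dSETD3 KO), and no pair was identical. An exact permutation of 2 against 2 arrays cannot give a two-sided p below 0.333, so none was used. Simulated data with known changes were used to check the limma code. Python 3.11.15, pandas 2.3.3, numpy 2.4.6 and matplotlib 3.10.9 were used for tables and figures.

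The genes named were the 8 members at every probe, CG32732, the other eggshell genes with a named probe, Yp1 to Yp3 (Yp2 had no named probe) and the 5 named genes nearest to the mean member profile. krimp, and the nearest genes to the profile without Cp7Fb, were named after values were seen. The members and gene lists were chosen with earlier results of these data known. The alternatives were quantile and cyclic loess normalization, normexp background correction (offset 50), the deposited table of 1 intensity per probe, no filter on dim probes, outlier spots kept, the t-test named in the methods, a replicate block and leaving out each array.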

Additional observations from a re-analysis of the deposited data

How the results depend on the processing

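All 15 probes kept a positive difference under all 13 alternatives, and no member was called lower under any. The count of 11 probes called higher was 11 with quantile and cyclic loess normalization, with the deposited 1-intensity table and with outlier spots kept, and 10 with normexp, where clos A_09_P171675 lost its call (adjusted p = 0.059). It was 0 without the filter on dim probes (32152 probes tested, lowest adjusted p of a member 0.07, 11 members at an unadjusted p under 0.05) and 0 with the methods' t-test (lowest adjusted p 0.14, 10 members at an unadjusted p under 0.05). Leaving out 1 array gave counts from 0 to 11 and a median log2 difference from 1.91 to 2.32. The count was 0 without control replicate 1 and 0 without control replicate 2, when no probe of the array was called, with 12 and 11 members at an unadjusted p under 0.05, and 11 without either dSETD3 KO array. In each of these fits the lone array is assumed to vary like the arrays of the other genotype. Thus the calls rest on having both control arrays, whereas the sizes changed less at the vitelline membrane genes. The member counts in this section include the 6 probes named only by the list of changed probes, so they describe the processing only. The log2 difference of Cp7Fb ran from 4.74 to 7.76 at A_09_P030341 and from 0.145 to 8.25 at A_09_P047621, and that of clos from 0.033 to 0.404 at A_09_P216265 and from 0.0502 to 0.468 at A_09_P177185. Over all probes, 801 were called higher and 3497 lower, against 1419 and 2442 with quantile and 1495 and 2521 with cyclic loess normalization, so the background share depends on the scaling.

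Replicate numbers are not stated to pair the arrays, and same-numbered arrays deviated with a correlation of −0.21. With the replicate block 10 member probes were called, clos A_09_P171675 losing its call. With the crossed pairing, added after seeing the data, 9 were called.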
